A study of Mus musculus with 8 samples.

Results

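The genes described here encode the oxidative phosphorylation complexes of mitochondria, in Ly-6C-high monocytes from mouse blood and spleen. A gene was taken as a member when a probe that is no control spot carried a name in the scanner files beginning with Nduf, Sdh followed by a, b, c or d, Uqcr, Cox followed by 4 to 8, or Atp5. The rule used names only. It found 113 probes of 82 genes among 27962 gene names on the array, of which 37 fell in complex I, 4 in complex II, 7 in complex III, 18 in complex IV and 16 in complex V. Of the 82 genes, 4 are not structural subunits: Ndufaf1 helps to assemble complex I, Cox7a2l helps to join complexes into supercomplexes, Cox4nb (now Emc8) belongs to a complex of the endoplasmic reticulum, and Atp5s (now Dmac2l) is a factor that associates with the synthase. Ndufa4 was counted in complex I by its name, although it is nowadays assigned to complex IV. The accessions that the scanner files list matched RefSeq for the probes of 80 members.

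The electron transport chain sits in the inner mitochondrial membrane. Complex I oxidises NADH and complex II oxidises succinate. Both pass electrons to ubiquinone, complex III passes them on to cytochrome c and complex IV to oxygen, and the proton gradient built on the way drives ATP synthesis by complex V. Most subunits are encoded in the nucleus and imported, and a small set is encoded by the mitochondrial genome. Monocytes use both glycolysis and respiration, and oxidative phosphorylation has been studied in them as a feature of activation and differentiation.

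The 8 samples were Ly-6C-high monocytes of female C57BL/6 mice, an inbred strain, aged 8 to 12 weeks, healthy, untreated and fed chow, 4 samples from blood and 4 from spleen. The mice were a group of 4, with both tissues taken from them. The sort took cells with much CD11b and Ly-6C on their surface and little CD90, B220, CD49b, NK1.1, Ly-6G, F4/80, I-Ab or CD11c. From 1000 such cells per sample RNA was isolated, with an integrity number of at least 8, and 5 ng of RNA was amplified by the NuGen WT-Ovation Pico system and labelled with Cy3 for 1-colour Agilent arrays. No label says that a replicate number stands for a mouse, so the tissues were compared as unpaired groups. The p-values rest on the spread from sample to sample, which the statistical model (limma) draws toward the spread of all genes.

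Levels are log2 values of the authors' value table, and differences are spleen minus blood, so 1 is 2-fold. A level of 6.8 was taken as the background level. The scanner files of blood 1, 2 and 3 did not match their columns in that table. Rank correlations were 0.842 to 0.872, against 1 after rounding in the other 5 samples. Whether the files or the columns hold the intended blood samples is not known. Results below rest on the columns unless scanner files are named. The 5 matching arrays had 26539 to 29572 of 41174 probes well above background. Every column had the median 7.31, so a shift shared by most genes would not show, and in bulk samples fewer cells of a type cannot be told apart from less RNA per cell. The sorted cells carried their monocyte markers, with a mean level over 6 genes of 12.8 to 13.1 in blood and 12.2 to 13.2 in spleen. Of these 6 genes, 2 had the higher mean in spleen. The mean level of 10 neutrophil genes was 7.69 to 9.61 in blood and 11.2 to 12.4 in spleen, and that of 7 genes of dividing cells was 7.45 to 7.88 and 8.83 to 10.2. These 2 lists were higher in spleen for 9 of 10 and 7 of 7 genes by their means, none lay below background in every sample, and their part in the values below was not tested. The mean level of 4 red pulp macrophage genes was 8.04 to 8.60 in blood and 8.89 to 9.83 in spleen, and 3 of the 4 had the higher mean in spleen. Lists of B cell, T cell, NK cell, platelet, dendritic cell and erythroid markers overlapped between the tissues, with mean levels from 6.35 to 10.1, although 5 of 5 T cell genes had the higher mean in spleen and 5 of 5 platelet genes in blood.

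Promoter sequences show a feature that the naming rule did not use. RefSeq promoters (GRCm38.p6, 250 bases before to 50 after each start) were matched for 67 of the 82 members, and 4 motifs were searched on both strands. Nuclear respiratory factor 1 (NRF1), GABP and other ETS factors, YY1 and the estrogen-related receptors (ERR) are textbook regulators of nuclear genes for mitochondrial proteins. The windows below, with the match in capitals, come from members whose values are described later: 3 with the NRF1 core GCATGCGC, and 1 each with the ETS core CCGGAAG, the YY1 core AAGATGGCG and the ERR core TCAAGGTCA.
Sdhb, NRF1 core, GRCm38.p6 chr4:140961191-140961250, strand +: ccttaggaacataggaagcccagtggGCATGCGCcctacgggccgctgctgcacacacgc
Atp5g2, NRF1 core, GRCm38.p6 chr15:102671055-102671114, strand -: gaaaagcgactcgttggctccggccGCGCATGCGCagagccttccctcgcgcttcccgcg
Atp5k, NRF1 core, GRCm38.p6 chr5:108434415-108434474, strand -: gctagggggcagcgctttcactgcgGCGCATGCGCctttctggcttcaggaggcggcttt
Uqcrh, ETS core, GRCm38.p6 chr4:116075071-116075130, strand -: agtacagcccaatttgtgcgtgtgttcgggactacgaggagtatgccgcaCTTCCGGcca
Atp5j, YY1 core, GRCm38.p6 chr16:84835031-84835090, strand -: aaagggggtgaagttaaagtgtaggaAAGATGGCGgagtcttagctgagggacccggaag
Atp5g3, ERR core, GRCm38.p6 chr2:73911345-73911404, strand -: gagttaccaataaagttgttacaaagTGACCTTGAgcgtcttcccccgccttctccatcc
In Atp5g2 and Atp5k the core is read on both strands over the same bases, so the capitals cover 10 bases. The match began 54 bases before the start in Sdhb, 42 in Atp5g2, 50 in Atp5k, 10 in Uqcrh, 88 in Atp5j and 52 in Atp5g3. In Uqcrh and Atp5g3 the capitals are the core as read on the opposite strand.

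The NRF1 core was found in 10 of the 67 members (14.9%) and in 3.05% of the 27025 genes with a promoter in the table. The ETS core was found in 17 members (25.4% against 9.93%), the YY1 core in 7 (10.4% against 1.64%) and the ERR core in 2 (2.99% against 0.466%). The motifs were chosen for these known regulators, and the 27025 genes were not matched to the members by base composition or expression. Of the 7 YY1 matches, 6 lay across or after the start and 1 before it, in Atp5j. No matches of different motifs overlapped. Together 29 of 67 members held at least 1 of the motifs, and 7 held more than 1 (Atp5j, Atp5k, Atp5l, Cox6a1, Sdhb, Sdhd and Uqcr). By complex, the NRF1 core was in 3 of 33 promoters of complex I, 1 of 3 of complex II, 2 of 4 of complex III, 1 of 12 of complex IV and 3 of 15 of complex V. The YY1 core was in 5 of 33 of complex I and 2 of 15 of complex V, and in none of complexes II to IV. The median difference between the tissues was 0.22 over the 10 members with an NRF1 core and 0.07 over the 53 tested without it. It was -0.01 over the 17 with an ETS core against 0.12 over 46, and 0.12 over the 7 with a YY1 core against 0.07 over 56. The first 3 windows show the range within 1 motif, since Atp5g2 and Sdhb had positive differences and Atp5k a negative one.

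Nearly all members were measured in both tissues. The brightest probe of 78 of the 82 genes reached the background level on every array that gave a value. Ndufaf1, Cox8b and Atp5s reached it on some arrays and Cox8c on none. No member had a saturated spot on the 5 matching arrays. After the filter, 76 members were tested: 35 of complex I, 4 of complex II, 7 of complex III, 15 of complex IV and 15 of complex V. Ndufa2, Ndufs5 and Cox5b had fewer than 3 values in a tissue, and Cox8b, Cox8c and Atp5s were too dim.

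No member differed between blood and spleen past the threshold. With limma and Benjamini-Hochberg adjustment over 17819 genes, 0 of 76 members passed an adjusted p of 0.05 (0.00% of all genes did), and the members' adjusted p lay between 0.963 and 0.9999. At an unadjusted p under 0.05 there were again 0 of 76 members, while 971 of all genes (5.45%) passed it, 555 higher in spleen (3.11%) and 416 lower (2.33%). The 95% interval of every member held 0. The differences ran from -0.75 for Atp5g1 to 0.68 for Ndufa7. Of the 76, 70 (92.1%) were under 0.5 in size, as were 82.4% of all genes. For 54 of 76 members (71.1%) the 95% interval lay within 2-fold in both directions, against 55.4% of all genes. For the other 22, a difference of 2-fold in 1 direction lay within the interval. The median SD within a tissue was 0.33 for members and 0.45 for all genes. Most members had levels well above the column median of 7.31, and they were not matched to all genes by level. Whether the level accounts for the smaller SD and the narrower intervals was not tested. Since limma draws each gene's variance toward that of all genes, members with a small SD have wider intervals than their own samples alone would give. An example is Atp5j, with an SD of 0.08 in blood and 0.07 in spleen and a standard error of 0.18 for the difference.

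**Figure D1:**
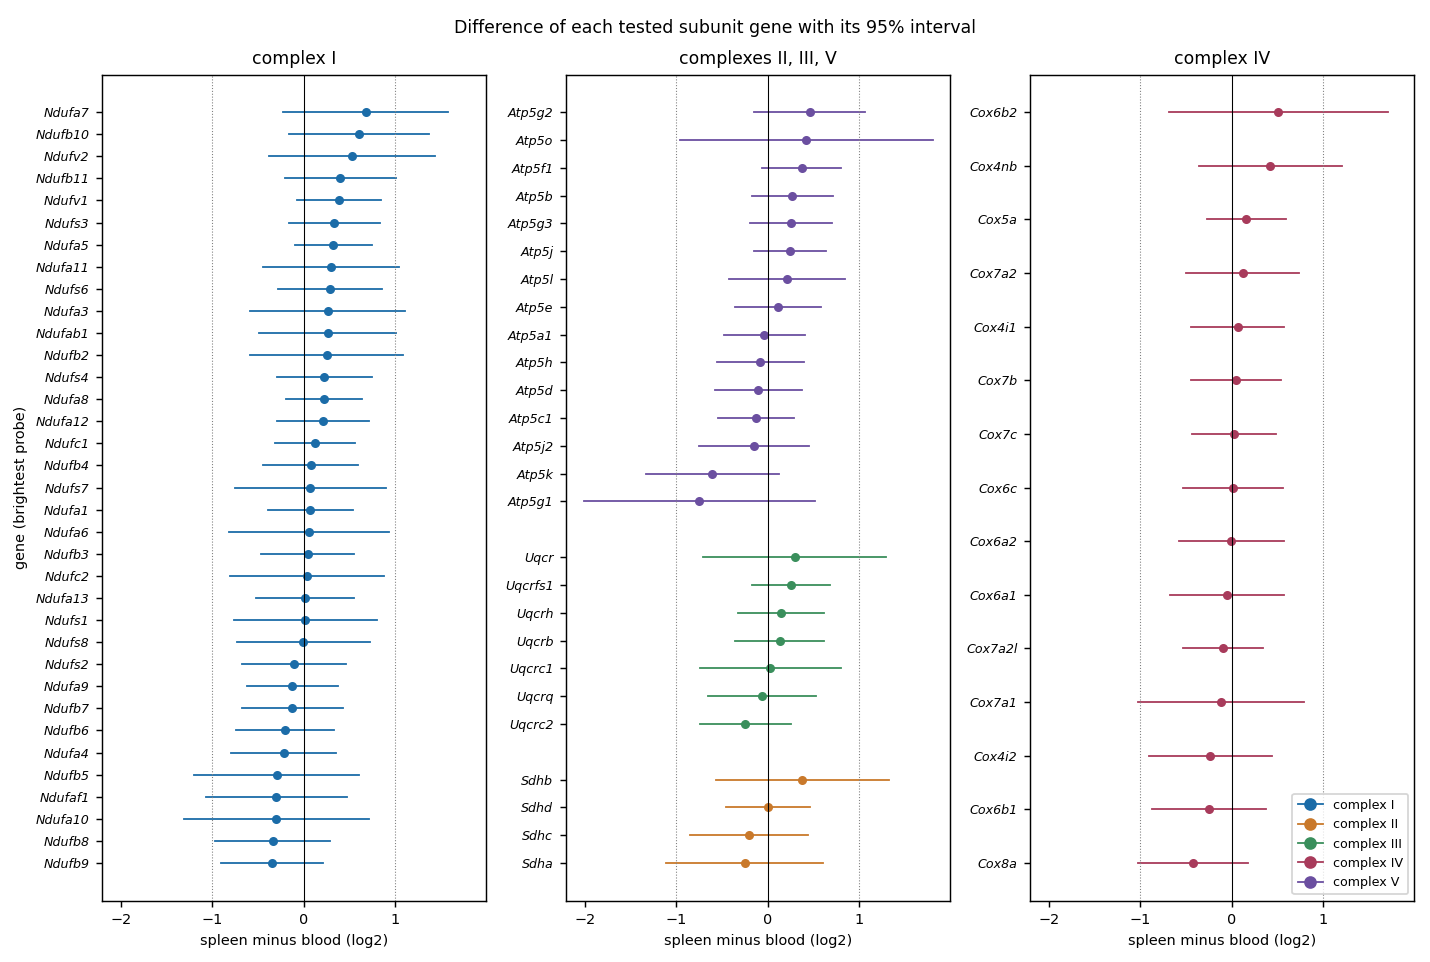
Difference between the means of 4 spleen and 4 blood samples (spleen minus blood, log2; 3 samples where a value is empty) for each of the 76 tested members, in panels by complex, with points for the differences and lines for the 95% intervals of limma. Dotted lines mark 2-fold; every interval crosses 0, and 54 of the 76 lie within the dotted lines.

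The sign of the differences leaned to spleen by a small amount. Of the 76 members, 47 had a positive and 29 a negative difference (61.8% positive, against 48.8% of all genes), and the median was 0.05, against -0.01 over all genes. Without the non-subunits it was 0.06 over 73 genes. By complex, 24 of 35 differences were positive in complex I (median 0.07), 2 of 4 in complex II (-0.10), 5 of 7 in complex III (0.13), 8 of 15 in complex IV (0.01) and 8 of 15 in complex V (0.11). All 4 spleen values lay above all blood values in 3 members (1.90% of all genes did so), Ndufa5, Uqcrfs1 and Atp5j, and below them in 0 (1.41%). Leaving out any 1 sample kept the median of the members between 0.01 and 0.11, but the sign of 29 members turned in at least 1 of the 8 fits, and the count at an unadjusted p under 0.05 went to 3 without spleen 1 (5.75% of all genes passed it in that fit), to 1 without blood 3 (5.49%) and to 1 without spleen 2 (5.93%). The 5 samples whose scanner file matched its column are blood 4 and the 4 spleen samples, and so hold 1 blood sample. In them 40 of 76 differences were positive (52.6%, against 48.8% of all genes). The median was 0.02, against -0.01 over all genes.

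The medians of the samples overlapped between the tissues. Each member's values were set against the average of its blood mean and its spleen mean. The median of these deviations was -0.14, -0.03, -0.05 and -0.015 in blood 1 to 4 and 0.06, 0.10, -0.07 and 0.06 in spleen 1 to 4. Blood 1 was the lowest sample and spleen 3 lay below 3 of the 4 blood samples. Above their own average of blood and spleen means were 25 of 74 measured members in blood 1, 35 of 74 in blood 2, 31 of 75 in blood 3 and 36 of 76 in blood 4. In spleen 1 to 4 the counts were 41 of 72, 52 of 75, 29 of 75 and 50 of 76. Over all genes the same medians ran from -0.08 to 0.06 in blood and from -0.075 to 0.07 in spleen. Spleen 3 was the lowest spleen sample in complexes III, IV and V (-0.20, -0.31 and -0.13), and blood 1 the lowest sample in complex I (-0.30).

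**Figure D2:**
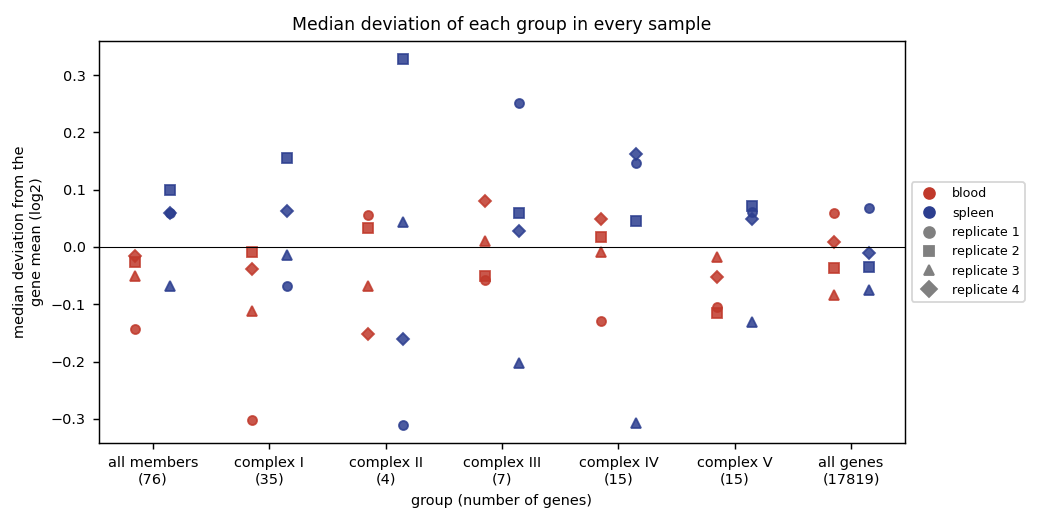
Median deviation (log2) in each sample from the average of each gene's blood and spleen means. Groups are all 76 tested members, each complex and all 17819 genes. Blood is red, spleen is blue, and marker shapes give the replicate number. In every group the blood and spleen samples overlap, and spleen 3 (triangle) is the lowest spleen sample for all members.

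Complex I, the entry point for electrons from NADH, had differences from -0.34 (Ndufb9, an accessory subunit) to 0.68 (Ndufa7). Ndufv1, the flavoprotein that binds NADH (probe at chr19:3902422-3902585 of build mm7), had levels of 11.09, 11.38, 11.19 and 11.28 in blood and 11.36, 11.84, 11.48 and 11.80 in spleen. Only blood 2 reached above the lowest spleen sample, spleen 1. The difference was 0.39 (95% interval -0.07 to 0.84), with an unadjusted p of 0.0875 and an adjusted p of 0.965 by limma. Ndufb10, an accessory subunit of the membrane arm (probe at chr17:22904443-22904502), had levels of 11.16, 10.92, 12.45 and 11.82 in blood and 12.32, 12.47, 11.87 and 12.13 in spleen. Its blood samples were spread widely, with blood 3 close to the highest spleen sample, and the difference was 0.61 (95% interval -0.16 to 1.37). Leaving out 1 sample moved it between 0.38 (without blood 2) and 0.90 (without blood 3, with an unadjusted p of 0.0134 and an adjusted p of 0.797).

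Ndufa5, an accessory subunit of the peripheral arm (probe at chr6:24461957-24462016), had levels of 12.02, 11.99, 12.08 and 11.85 in blood and 12.51, 12.35, 12.13 and 12.23 in spleen. All spleen samples lay above all blood samples by a narrow gap, and the difference was 0.32 (95% interval -0.10 to 0.74). Ndufs1, the large iron-sulfur subunit of the core (probe at chr1:63384448-63384507), had levels of 9.82, 10.52, 10.27 and 10.49 in blood and 11.01, 10.21, 9.39 and 10.56 in spleen. Spleen held both its highest and its lowest sample, spleen 1 and spleen 3. The difference was 0.02 (95% interval -0.76 to 0.80), and it turned negative without blood 1, spleen 1 or spleen 4 (down to -0.22). Ndufa7, given as the end of the range and chosen after its values were seen, had levels of 9.75, 10.62, 10.42 and 10.38 in blood and 11.99, 9.97, 11.03 and 10.89 in spleen. Its spleen samples were the more spread and spleen 2 lay within the blood range. Leaving out 1 sample moved its difference between 0.34 (without spleen 1) and 1.01 (without spleen 2, with an unadjusted p of 0.0172 and an adjusted p of 0.687).

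Complex II, succinate dehydrogenase, is the only complex here encoded by nuclear genes alone and is also an enzyme of the tricarboxylic acid cycle. The median SD within a tissue was 0.51 over its 4 members, against 0.33 over all members. Sdhd was less variable, with an SD of 0.18 in blood and 0.20 in spleen. Sdha, the flavoprotein that oxidises succinate (probe at chr13:71261221-71261280), had levels of 12.02, 10.95, 10.84 and 10.74 in blood and 10.27, 11.61, 11.19 and 10.48 in spleen. Blood 1 stood above every other sample. The difference was -0.25 (95% interval -1.11 to 0.61), and without blood 1 it was 0.04. Sdhb, the iron-sulfur subunit (probe at chr4:140345040-140349607), had levels of 10.45, 9.502, 9.80 and 11.24 in blood and 10.12, 11.05, 11.20 and 10.14 in spleen. Blood 4 was its highest sample and the tissues overlapped, with a difference of 0.38 (95% interval -0.57 to 1.32), which was 0.13 without blood 2 and 0.71 without blood 4. Sdhc, a membrane anchor (probe at chr1:171099620-171099679), had levels of 11.19, 11.88, 11.38 and 11.30 in blood and 11.04, 10.76, 11.25 and 11.90 in spleen and a difference of -0.20 (95% interval -0.84 to 0.44), which was -0.04 without spleen 2 and -0.42 without spleen 4. Blood 2 and spleen 4 were both near its top. Sdhd, the other anchor, had a difference of 0.0037, with an interval of -0.45 to 0.46. The median of complex II was 0.04 without blood 1 and negative in the other 7 fits that leave out a sample.

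Complex III, the cytochrome bc1 complex, had differences from -0.24 (Uqcrc2) to 0.29 (Uqcr), and 6 of its 7 intervals lay within 2-fold. Uqcrfs1, the Rieske iron-sulfur protein (probe at chr13:29906041-29906100), had levels of 12.48, 12.13, 12.55 and 12.48 in blood and 12.66, 12.60, 12.64 and 12.78 in spleen. The spleen samples lay just above all blood samples, and the difference was 0.26 (95% interval -0.17 to 0.69). Uqcrc2, a core protein of the matrix side (probe at chr7:116581368-116581427), had levels of 11.54, 11.38, 11.69 and 11.39 in blood and 11.43, 10.77, 11.42 and 11.41 in spleen. Spleen 2 lay apart from the other 3 spleen samples, which lay within the blood range, and the difference was -0.24 (95% interval -0.74 to 0.26), or -0.08 without spleen 2. Uqcrh, the hinge protein that docks cytochrome c1 (probe at chr4:115443478-115443537), had levels of 14.01, 13.82, 14.03 and 14.10 in blood and 14.51, 14.09, 13.86 and 14.09 in spleen and a difference of 0.15 (95% interval -0.32 to 0.62), which was 0.02 without spleen 1. Spleen 1 was its highest sample and the other 3 spleen samples overlapped blood. Uqcrc1, the partner of Uqcrc2 (probe at chr9:108659842-108659901), had levels of 11.74, 12.57, 13.20 and 12.92 in blood and 12.40, 13.12, 12.26 and 12.77 in spleen. Blood held both its highest and its lowest sample, and the difference of 0.03 (95% interval -0.74 to 0.80) turned negative without blood 1, spleen 2 or spleen 4. The median of complex III was 0.02 without blood 1 and 0.02 without spleen 1.

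Complex IV, cytochrome c oxidase, gave a median difference of 0.01, which was -0.08 without spleen 1, -0.04 without blood 3 and -0.03 without spleen 4. Cox4i1, the ubiquitous form of the largest nuclear-encoded subunit (probe at chr8:119308998-119309057), had levels of 14.33, 14.25 and 14.24 in blood and 14.58, 14.34, 14.03 and 14.40 in spleen, with no value for blood 1. The 3 blood samples lay close together within the spleen range, and the difference of 0.07 (95% interval -0.44 to 0.58) was -0.02 without spleen 1. Cox8a, the ubiquitous form of the smallest subunit (probe at chr19:7035098-7035157), had levels of 11.88, 12.61, 12.28 and 12.15 in blood and 12.21, 11.77, 11.25 and 12.00 in spleen. Spleen 3 was its lowest and blood 2 its highest sample, the tissues overlapped, and the difference was -0.42 (95% interval -1.02 to 0.18). Cox6b2, known as the testis form of subunit VIb (probe at chr7:4326339-4326398), had levels of 10.19, 9.95, 10.00 and 10.71 in blood and 9.02, 10.69, 11.45 and 11.73 in spleen. Spleen 1 was the lowest of all samples while spleen 3 and 4 lay above all blood samples. The difference was 0.51 (95% interval -0.69 to 1.71), and leaving out 1 sample moved it between 0.17 (without spleen 4) and 1.08 (without spleen 1, with an unadjusted p of 0.00896 and an adjusted p of 0.602). It was 0.011 on the 5 columns that match a scanner file. Cox4nb, no subunit of the complex (probe at chr8:119292980-119293039), had levels of 6.81, 7.83, 8.38 and 7.93 in blood and 8.26, 8.24, 7.63 and 8.52 in spleen, with blood 1 at the background level, and a difference of 0.42 (95% interval -0.36 to 1.21), which was 0.12 without blood 1.

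Forms of complex IV subunits known from particular tissues were also measured. Cox4i2, the lung and oxygen-sensitive form, had levels of 7.12 to 8.00 in blood and 7.05 to 7.57 in spleen, above the background level on all 7 arrays with a value. Cox6a2 (8.09 to 8.85 in blood, 8.22 to 8.91 in spleen) and Cox7a1 (8.22 to 9.39 in blood, 7.51 to 9.35 in spleen), the heart and muscle forms, were above it on all 8. Cox8b, another muscle form, reached it in blood 1 (6.92) and blood 2 (7.81) and lay between 6.52 and 6.77 in the other 6 samples. Cox8c, the testis form, lay between 6.16 and 6.30 everywhere. Whether these probes also bind other transcripts was not tested. The differences of Cox6a2 (-0.00 (95% interval -0.58 to 0.57)), Cox7a1 (-0.12 (95% interval -1.03 to 0.79)) and Cox4i2 (-0.23 (95% interval -0.91 to 0.44)) stood beside those of the common forms Cox6a1 (-0.05 (95% interval -0.67 to 0.57)), Cox7a2 (0.12 (95% interval -0.49 to 0.73)) and Cox4i1, and all these intervals hold 0.

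Complex V, the ATP synthase, held both the most negative difference of the members and 2 of their 3 smallest p-values. Atp5b, the catalytic beta subunit (probe at chr10:127591587-127591646), had levels of 12.67, 12.83, 12.63 and 13.15 in blood and 13.11, 13.03, 13.04 and 13.19 in spleen. Blood 4 overlapped the spleen samples while the other 3 blood samples lay below them, and the difference was 0.27 (95% interval -0.18 to 0.72). Atp5f1 (now Atp5pb), the b subunit of the stalk (probe at chr3:105761241-105761300), had levels of 11.28, 11.32, 11.68 and 11.46 in blood and 11.81, 11.83, 11.94 and 11.63 in spleen. Only blood 3 reached into the spleen range, and the difference was 0.37 (95% interval -0.06 to 0.80), with an unadjusted p of 0.0859 and an adjusted p of 0.963 by limma. Atp5k, the e subunit, which acts in dimers of the synthase (probe at chr5:107614717-107614972), had levels of 11.53, 11.59 and 11.01 in blood and 11.26, 11.04, 10.63 and 10.17 in spleen, with no value for blood 3. Spleen 4 was its lowest sample, spleen 1 and 2 lay above blood 4, and the difference was -0.60 (95% interval -1.33 to 0.12). It lay between -0.79 (without blood 4) and -0.40 (without spleen 4) with 1 sample left out, and at -0.77 without spleen 1 it had an unadjusted p of 0.0437 and an adjusted p of 0.856.

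The ring of c subunits is encoded by 3 genes whose mature proteins are the same. Atp5g2 (probe at chr15:102649170-102649229) had levels of 11.68, 11.40, 11.63 and 11.78 in blood and 11.47, 12.59, 11.91 and 12.37 in spleen. Spleen 1 lay within the blood range and the other 3 spleen samples above it, and the difference was 0.46 (95% interval -0.15 to 1.07), between 0.29 without spleen 2 and 0.66 without spleen 1 (an unadjusted p of 0.0247 and an adjusted p of 0.783). Atp5g3 and Atp5g1 are given beside it as the other genes of this protein. Atp5g3 had levels of 13.26, 13.58, 13.62 and 13.77 in blood and 13.97, 13.80, 13.64 and 13.84 in spleen and a difference of 0.26 (95% interval -0.19 to 0.70). Atp5g1 had levels of 9.78, 11.84, 9.02 and 9.17 in blood and 9.59, 9.36, 8.79 and 9.08 in spleen. Blood 2 alone lay far above the rest, and the difference of -0.75 (95% interval -2.01 to 0.52) was -0.12 without it. Atp5j, coupling factor 6 of the stalk, had levels of 12.11, 12.26, 12.12 and 12.25 in blood and 12.48, 12.49, 12.38 and 12.36 in spleen, with a gap between the tissues and a difference of 0.24 (95% interval -0.15 to 0.64). Atp5o, the subunit that gives oligomycin sensitivity, was looked at after its values were seen: its levels were 11.76, 11.22, 11.16 and 11.43 in blood and 13.94, 11.57, 11.05 and 10.69 in spleen. Spleen 1 alone was high, and the difference of 0.42 (95% interval -0.96 to 1.81) was -0.29 without it. The median of complex V was -0.06 without spleen 1 and 0.055 without blood 1.

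**Figure D3:**
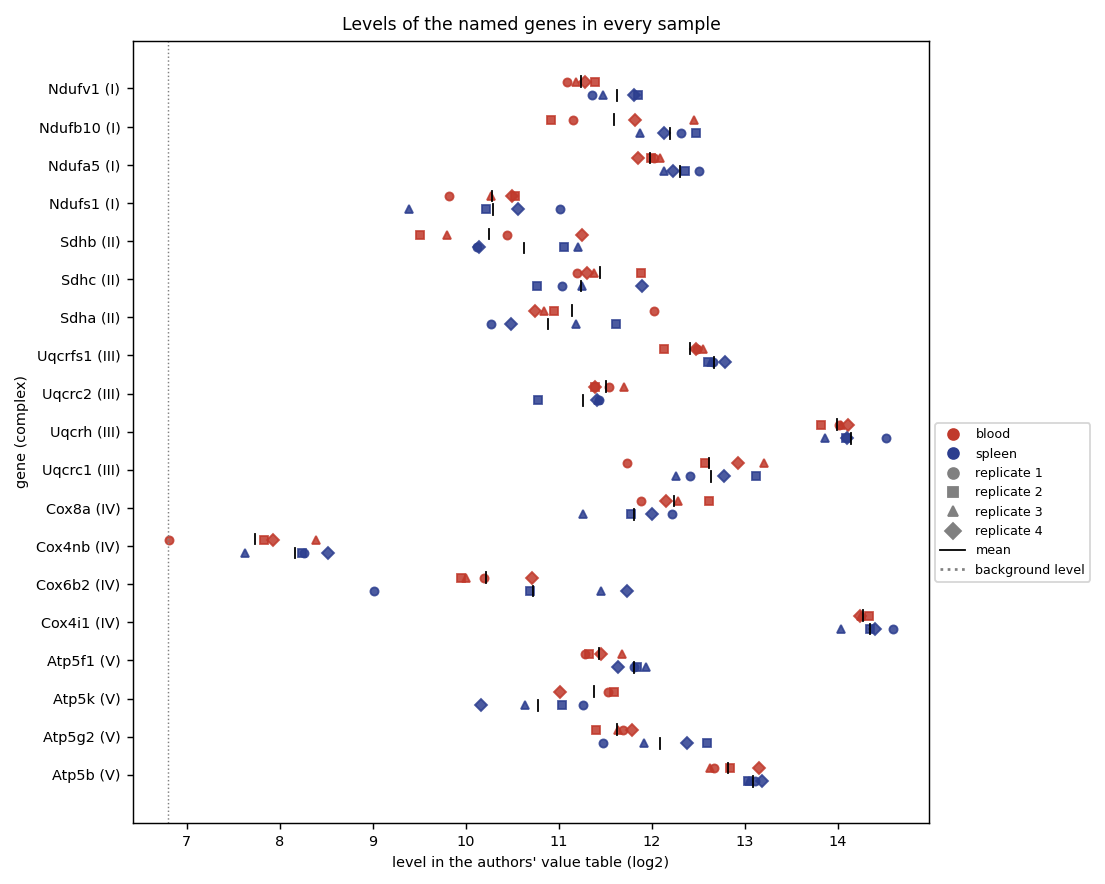
Levels (log2, authors' value table) of 19 members in each of the 4 blood (red) and 4 spleen (blue) samples, with a marker shape per replicate number, a bar at each mean and a dotted line at the background level of 6.8. Blood and spleen points overlap in all but Ndufa5 and Uqcrfs1, and single samples stand apart in Sdha (blood 1), Uqcrc2 (spleen 2) and Cox6b2 (spleen 1).

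Different probes of a gene did not always give the same sign. Of 21 members with more than 1 probe that passed the filter, all probes had the same sign in 14. They differed in 7: Atp5b, Cox4nb, Cox5a, Ndufa12, Ndufa3, Ndufab1 and Sdha. The median range between the probes of a gene was 0.24, larger than the median difference of any complex, and the widest was 0.92 (Ndufab1, from -0.50 to 0.42). For Atp5b the brightest probe gave 0.27, and the other probes, at chr10:127586901-127586960 and chr10:127585810-127586488 of mm7, gave -0.50 and -0.26. For Sdha the second probe gave 0.32, against -0.25 by the brightest. For Uqcrh and Atp5g2 the other probe gave 0.15 and 0.42, near the 0.15 and 0.46 of the brightest. With the mean over the probes of a gene, the median of complex V was -0.04 and the count at an unadjusted p under 0.05 stayed at 0 (5.46% of all genes).

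**Figure D4:**
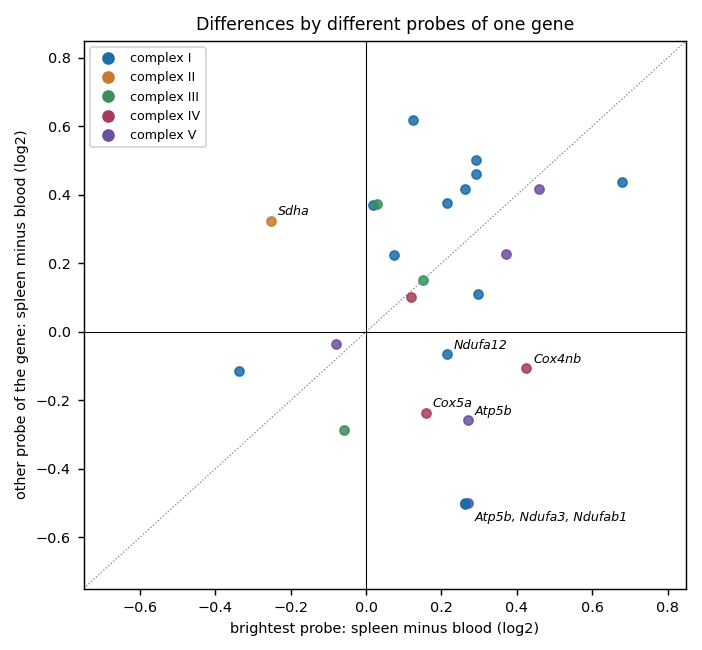
Difference (spleen minus blood, log2) by the brightest probe of a gene on the x axis and by each other probe of that gene on the y axis, for the 21 members with more than 1 probe that passed the filter, coloured by complex, with a dotted line where both are equal. Named points lie where the signs differ. They belong to 7 genes, and for Atp5b, Ndufa3 and Ndufab1 the other probe gave -0.50. The named points of Cox4nb, Cox5a, Ndufa3 and Ndufab1 come from dim probes near the background level.

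Other genes of the pathway showed no call either. None of the 190 genes tested in 7 lists passed the adjusted threshold of limma, and at an unadjusted p under 0.05 the lists held 7 genes higher and 9 lower in spleen, beside 3.11% and 2.33% of all genes. Of 45 assembly factors, which build the complexes and are counted without the member Ndufaf1, 5 were higher and 2 lower at that p. Sdhaf4 (1110058L19Rik on the array), an assembly factor of complex II, had levels of 7.67, 7.31, 7.37 and 7.09 in blood and 8.13, 8.39, 8.22 and 8.49 in spleen. The tissues did not overlap, and the difference was 0.95 (95% interval 0.48 to 1.41) with an adjusted p of 0.386. On the scanner files it was 0.42 scaled at the 75th percentile and 0.24 with normexp, with 3 blood files that do not match their columns. Cox19 (2810437L13Rik on the array), a copper-handling factor of complex IV, had a mean of 8.99 ± 0.36 in blood (SD, n = 4) and 9.85 ± 0.07 in spleen (SD, n = 4) and a difference of 0.86 (95% interval 0.35 to 1.36).

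Of 15 genes of electron carriers and ubiquinone synthesis, 0 were higher and 1 was lower at that p: Dhodh, which feeds electrons from pyrimidine synthesis to ubiquinone, with a difference of -1.05 (95% interval -1.87 to -0.23). Coq10a, a ubiquinone-binding protein, had -0.67 (95% interval -1.36 to 0.01). Of the 5 subunits and partners outside the naming rule none passed it, and the 2 with the smallest p were Higd2a (0.67 (95% interval -0.08 to 1.42)) and Higd1a (0.43 (95% interval -0.76 to 1.61)), which act in complex IV assembly. Among 23 genes of the tricarboxylic acid cycle and pyruvate dehydrogenase, 0 were higher and 1 lower, Idh3b, a subunit of isocitrate dehydrogenase (-0.65 (95% interval -1.28 to -0.03)), followed by Idh2 (-0.64 (95% interval -1.29 to 0.01)). Among 15 regulators, Pprc1, a coactivator related to PGC-1, was lower at that p, with levels of 9.64, 9.36, 9.42 and 8.96 in blood and 8.65, 9.04, 7.65 and 7.71 in spleen and a difference of -1.09 (95% interval -1.86 to -0.31). Only spleen 2 reached into the blood range. Gabpa, the DNA-binding subunit of GABP which recognises the ETS core, had 0.65 (95% interval -0.04 to 1.34), with 3 spleen values.

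Among 12 mitochondrial carriers and porins, 1 was lower at an unadjusted p under 0.05, the porin Vdac2 of the outer membrane. Its levels were 11.10, 11.48, 11.32 and 11.55 in blood and 11.10, 10.56, 10.87 and 10.79 in spleen, where the highest spleen sample lay just under the lowest blood sample, and its difference was -0.53 (95% interval -1.003 to -0.06). Slc25a12, an aspartate and glutamate carrier, had -0.60 (95% interval -1.40 to 0.20). Among 75 proteins of the mitochondrial ribosome, 2 were higher and 3 lower, with Mrpl45 (0.86 (95% interval 0.25 to 1.47)) and Mrpl49 (-1.29 (95% interval -2.29 to -0.28)) at the smallest p and a median of 0.03 over the list. By the mean over its probes Mrpl45 had 0.295, and Mrpl49 had -0.395 where probes had to reach the background level on all 8 arrays and -0.83 without blood 3. The subunits encoded by the mitochondrial genome were looked for under 26 names, 0 of which were on the array, so those subunits are not analysed here.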

How the data were processed

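Per the file headers, the scanner files hold 1-colour spot intensity from Agilent Feature Extraction 9.5.1.1, with local background subtraction. The values used are the authors' deposited table on a log2 scale, made with limma per the submitters' processing notes. Its normalization is not stated; its columns share a median and rank probes as the scanner's median signal does on the 5 matching arrays, and 583 to 1426 cells per column are empty.

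The background level of 6.8 was set on the 5 matching arrays by the scanner's own test. It is the lowest from which at least 95% of probes were well above background on each of them. The columns of blood 1 to 3 have no matching scanner test, so detection there rests on the level of 6.8 alone. Probes were kept at that level on at least 4 of 8 arrays, with at least 3 values per tissue (25471 probes), and the brightest probe stood for a gene name (17819 genes). Spleen was compared with blood by lmFit and eBayes of limma 3.58.1 (R 4.3.3, data.table version 1.17.8), with Benjamini-Hochberg adjustment over all genes, a threshold of 0.05 and 95% intervals; the fit was tested on simulated data. An empty value was left out of the fit. The number of arrays limits the precision. Positions are those of the scanner files (mm7); exon and untranslated region annotation of that build was not used here.

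The members and lists were chosen with earlier results of these data known. Named are, in each complex, the 3 tested members with the smallest unadjusted p and 1 core member, and in each list of other genes the 2 with the smallest p; others are marked as chosen later or belong to a set described as a whole. Replicate numbers were not taken to pair the samples, since the mouse behind each number is not given. Correlations of deviations were 0.09 to 0.14 for the same number, all above the -0.12 to 0.03 for other numbers. Both tissues came from the same group of 4 mice, so blood and spleen share animals. A pairing by mouse remains possible, and the unpaired comparison does not use it. Alternatives changed the filter, the probe rule, the gene key, the variance model, the weights, the block, the source of values and the samples.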

Additional observations from a re-analysis of the deposited data

Results flagged for a closer look

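In 74 groups of 4 values (the named genes and the medians of the members in a tissue), 4 had a sample whose gap to its nearest neighbour was, relative to the group's range, above Dixon's 95% critical value for 4 samples. Chance flags about 1 in 20 groups. Sdha in blood 1 had a level of 12.02, against 10.74 to 10.95 in the other blood samples. Uqcrc2 in spleen 2 had a level of 10.77, against 11.41 to 11.43. Mrpl49, a protein of the mitochondrial ribosome, had a level of 7.935 in spleen 3, against 8.88 to 9.04. The median deviation of complex V was -0.131 in spleen 3, against 0.048 to 0.072 in the other spleen samples.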

How the results depend on the processing

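No member passed the adjusted threshold under any setting tried; the smallest adjusted p of a named member over them was 0.519. The median of the members stayed positive with any 1 sample left out (0.008 to 0.112). Scanner files of blood 1 to 3 do not match their columns, so the settings on all 8 scanner files compare other blood values. Whether the files or the columns hold the intended blood samples is not known. The cause of the changes below was not tested. The replicate block, random at a correlation of 0.21, gave 14 genes past the adjusted threshold and the fixed block 1; no member was among them. Every same-number correlation was above every other one, a hint from the data and not from the design. A random block for the slide could not be fitted, since its correlation could not be estimated. The slides of the blood 1 to 3 columns are not known, as their scanner files do not match them. Blood 4 and spleen 4 share a slide, and values within it rest on 1 sample per tissue. Settings on the 5 matching files or columns have 1 blood sample, taken to vary like the spleen samples.

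The count of members at an unadjusted p under 0.05 was 4 of 81 with no filter (4.75% of all genes passed it), 2 of 76 on the scanner files scaled at the 75th percentile (8.5%), 5 with normexp (offset 50) and quantile normalization (9.39%), 1 on the 5 matching scanner files (3.67%), 2 on the 5 matching columns (3.86%) and 0 to 3 with a sample left out. The median of the members was 0.306 on the scanner files at the percentile (59 of 76 positive, 77.6%), against -0.056 over all genes (46.5% positive). With normexp the median was 0.206 (69.7% positive), against -0.017 over all genes (48.2%). For complex I it was 0.286 at the percentile. For complex II it was 0.491 at the percentile, 0.446 with normexp and 0.130 on the 5 matching files. For complex III it was 0.305 at the percentile, -0.049 on the 5 files, -0.118 on the 5 columns and -0.122 within the shared slide. For complex V it was 0.224 with no filter, 0.210 with the background level on all 8 arrays, -0.037 as the mean over probes, 0.359 at the percentile, 0.254 with normexp, 0.031 on the 5 columns, 0.032 within the shared slide and -0.061 to 0.143 with a sample left out. Without a sample the medians ran from 0.056 to 0.118 for complex I, -0.167 to 0.040 for II, 0.017 to 0.182 for III and -0.081 to 0.099 for IV. Over all genes, 1 passed the adjusted threshold with the level on all 8 arrays, 7 with the mean over probes, 8 with an intensity trend, 9 with array weights, 1 at the percentile, 5 with normexp and 0 to 3 with a sample left out (3 without blood 1, spleen 1 or spleen 2).

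Of 19 named members, 9 kept their sign under every setting. Most of the 19 were named for a small p in these same data. Some settings, such as the intensity trend, leave a difference unchanged, so a kept sign is partly built in. Cox6b2 counted as kept at 0.011 on the 5 columns and 0.003 on the 5 scanner files. On the 5 columns the sign turned for Sdhb (-0.619), Sdha (0.146), Atp5b (-0.064), Uqcrc1 (-0.284), Ndufs1 (-0.196) and Higd1a (-0.217), and on the 5 scanner files for Sdha (0.206), Sdhc (0.055), Ndufs1 (-0.315), Sdhb (-0.599), Higd1a (-0.259), Uqcrc1 (-0.258) and Atp5b (-0.028). At the percentile it turned for Uqcrc1 (-0.032), Sdhc (0.466), Uqcrc2 (0.408), Sdha (0.345), Vdac2 (0.310), Cox8a (0.281), Coq10a (0.403) and Atp5k (0.767), and with normexp for Sdhc (0.413), Cox8a (0.175), Uqcrc1 (-0.144), Atp5k (0.659), Uqcrc2 (0.272), Sdha (0.303) and Vdac2 (0.259). Array weights turned Uqcrc1 (-0.030) and Ndufs1 (-0.017), the level on all 8 arrays Gabpa (-0.345), the mean over probes Sdha (0.036), Higd1a (-0.135) and Atp5b (-0.163), and the fixed replicate block Cox4i1 (-0.015). With a sample left out, Cox4i1 ran from -0.015 to 0.171, Higd1a from -0.011 to 0.740, Ndufs1 from -0.220 to 0.318, Sdha from -0.494 to 0.042 and Uqcrc1 from -0.260 to 0.228.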
